A study of Mus musculus with 11 samples.

Results

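Of 10451 peaks that the antibody written S5 against Rpb1 gave on chromosomes 1 to 19 and X of the mouse tumour line M00001, 1345 lay at the ends of protein-coding genes without a peak of the tagged fusion. They were chosen by peak overlap: each overlapped a peak of the second Rpb1 antibody, S2, lay within 1 kb of an end of a protein-coding gene (mm10), and overlapped no HA and no IgG peak of either line. These regions are called members here. Of the S5 peaks, 6500 overlapped S2, and 3418 of those lay within 1 kb of a gene end. HA peaks then took out 2058 and IgG peaks without HA another 15, so the members were 39.4% of the S5 and S2 peaks at gene ends.

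The series profiled 2 tumour-derived mouse cell lines, M00002 and M00001, by CUT&RUN, in which an antibody directs a nuclease to its target and the freed fragments are sequenced. Cells of both lines expressed the fusion with an HA tag (Fus1 in the labels, taken here as the ZFTA-RELA fusion of the series title), came from different mice, and were grown untreated in neural basal medium with bFGF and EGF. M00002 was profiled for HA, H3K27ac (antibodies ac4729 and ac647), p65 and the IgG control, and M00001 for HA, Cbp, p300, Rpb1 S2, Rpb1 S5 and IgG. Each target had 1 library per line, so no value below has a replicate, and a mark of M00002 is read at polymerase peaks of M00001. Age, strain and genotype beyond the fusion are not given in the sources used, and no line without the fusion was analysed here.

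Rpb1 is the largest subunit of RNA polymerase II. Its long repeated tail is phosphorylated on serine 5 as the polymerase starts at a promoter and on serine 2 as it elongates, and promoters of active genes commonly hold paused polymerase just downstream of the start. Cbp and p300 are related acetyltransferases that place the histone mark H3K27ac at working promoters and enhancers, and p65 is the protein encoded by Rela, part of which is in the fusion.

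Another 3 groups of S5 peaks served for comparison, all without IgG. The fusion counterparts were the 2013 S5 and S2 peaks at gene ends that overlapped HA of either line. Another 1198 S5 and S2 peaks without HA lay farther than 1 kb from gene ends, and 434 S5 peaks without HA lay at gene ends but had no S2 peak. The lists hold no read counts, so depth is unknown, and the lack of an HA peak says that none was called there, not that the fusion was absent. The 11 deposited lists held 1806 to 30680 peaks, and the S5 list 11032. The choice of members leans on the HA list of M00002: with HA of M00001 alone 2396 peaks met the rule.

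Promoter sequences at the strongest members are shown here. A window can run past its peak, as at Rogdi, so a marked motif can lie outside the peak. The members were ranked by the mean of their within-list ranks of S5 and S2 fold enrichment. Shown for the first 6 whose peak overlapped a promoter window in the RefSeq table are the 250 bases before the start (GRCm38.p6, the assembly behind mm10), 5′ to 3′ on the gene's strand. A further window, Heatr1, was chosen after the motif counts were seen, as the strongest other member with an ETS motif. Capitals mark matches, on either strand, to 11 promoter motifs, among them the GC box (GGGCGG), the CCAAT box (CCAAT), the cAMP response element (TGACGTCA), the E-box (CACGTG), the ETS motif (CCGGAAGT) and the NF-kappaB motif.
Zfp963, chr8:69749963-69750212, minus strand: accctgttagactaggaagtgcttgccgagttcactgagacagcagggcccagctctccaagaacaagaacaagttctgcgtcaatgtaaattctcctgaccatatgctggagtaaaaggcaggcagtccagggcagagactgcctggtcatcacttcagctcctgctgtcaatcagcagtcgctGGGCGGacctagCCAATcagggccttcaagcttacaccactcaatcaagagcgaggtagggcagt
Arnt, chr3:95434140-95434389, plus strand: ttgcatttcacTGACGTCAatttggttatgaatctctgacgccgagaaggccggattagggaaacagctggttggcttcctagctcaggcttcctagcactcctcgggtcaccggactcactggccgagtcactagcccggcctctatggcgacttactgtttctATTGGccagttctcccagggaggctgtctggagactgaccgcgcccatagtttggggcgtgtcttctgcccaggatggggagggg
Rogdi, chr16:5013554-5013803, minus strand: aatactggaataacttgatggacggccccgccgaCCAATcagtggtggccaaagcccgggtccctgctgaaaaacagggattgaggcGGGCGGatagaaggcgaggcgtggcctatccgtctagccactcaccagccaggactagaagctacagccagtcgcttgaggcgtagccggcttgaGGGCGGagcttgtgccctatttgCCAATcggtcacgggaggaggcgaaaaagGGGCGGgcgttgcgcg
Armc10, chr5:21645756-21646005, plus strand: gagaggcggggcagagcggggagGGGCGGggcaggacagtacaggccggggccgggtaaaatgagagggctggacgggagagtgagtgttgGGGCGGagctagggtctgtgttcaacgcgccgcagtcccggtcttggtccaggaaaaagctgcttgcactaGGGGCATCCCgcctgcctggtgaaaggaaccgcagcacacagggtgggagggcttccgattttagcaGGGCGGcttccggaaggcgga
Mbd5, chr2:48949258-48949507, plus strand: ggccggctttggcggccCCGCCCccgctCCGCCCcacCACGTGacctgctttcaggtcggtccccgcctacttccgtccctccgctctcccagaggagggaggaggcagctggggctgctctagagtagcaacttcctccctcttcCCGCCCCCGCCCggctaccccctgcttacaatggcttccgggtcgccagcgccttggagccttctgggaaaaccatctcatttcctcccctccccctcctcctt
Haus7, chrX:73459030-73459279, minus strand: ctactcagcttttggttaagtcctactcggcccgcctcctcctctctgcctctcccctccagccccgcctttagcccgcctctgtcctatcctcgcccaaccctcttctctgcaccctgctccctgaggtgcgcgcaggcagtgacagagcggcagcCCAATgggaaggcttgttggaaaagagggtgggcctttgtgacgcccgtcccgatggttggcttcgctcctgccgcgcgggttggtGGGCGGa
Heatr1, chr13:12395125-12395374, plus strand: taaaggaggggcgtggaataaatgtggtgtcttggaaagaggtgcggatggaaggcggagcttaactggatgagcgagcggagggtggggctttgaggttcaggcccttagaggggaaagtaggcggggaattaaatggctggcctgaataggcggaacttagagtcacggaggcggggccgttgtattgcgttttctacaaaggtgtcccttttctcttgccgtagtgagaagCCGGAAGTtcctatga
A match is a run of letters, not a site shown to be bound. Of the first 6 windows, 5 held a GC box and 4 a CCAAT box. The window of Arnt held a cAMP response element, that of Mbd5 an E-box, and that of Armc10 an NF-kappaB motif although no p65 peak overlapped its member.

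In all 12 strongest members S5 and S2 fold enrichment (a ratio of signal at the summit over the peak caller's background) was above 7, and the other 5 libraries were uneven. Values are given for 11 of the 12. At Zfp963 (chromosome 8, peak 69749633 to 69750056), a zinc finger gene, S5 fold was 8.20 and S2 fold 11.2, with ac4729 at 5.11 and no other peak. At Arnt (chromosome 3, 95434055 to 95434482), the common partner of the hypoxia-inducible factors and the aryl hydrocarbon receptor, S5 was 9.27 and S2 9.10, with ac4729 at 5.02 and p300 at 5.51. Both peaks cover the start of the gene.

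The member between Rogdi and Glyr1 (chromosome 16, 5013469 to 5013720) had S5 7.73 and S2 9.83, with p300 at 5.49 and no H3K27ac peak. It covers the start of Rogdi and lies near the far end of Glyr1, which encodes a nucleosome-binding protein. Zbtb20 (chromosome 16, 42875343 to 42875806), a zinc finger repressor, had S5 8.05, S2 8.82, ac4729 3.11 and p300 5.30, and an HA peak lay within 1 kb of its member. The divergent promoter of Armc10 and Fbxl13 (chromosome 5, 21645755 to 21646017) had S5 7.51 and S2 9.79 and none of the other 5 marks. Mbd5 (chromosome 2, 48949020 to 48949481), a methyl-CpG-binding domain gene, had S5 7.34, S2 9.87 and ac4729 4.00. Haus7 (X chromosome, 73459023 to 73459308), a subunit of the augmin complex of the spindle, had S5 7.17, S2 10.2, ac4729 4.76 and p300 4.80.

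Eif2ak3, the endoplasmic reticulum stress kinase PERK, had S5 8.35, S2 7.97 and p300 3.69. Magi3, a scaffold at cell junctions, had S5 7.10, S2 9.98, ac4729 5.37 and p65 3.08, and was the only one of the 11 with p65. Aph1c, a subunit of gamma-secretase, had S5 7.17 and S2 9.24 and none of the other marks. Zfp78 had S5 7.82, S2 8.14, Cbp 4.80 and p300 5.53. None of the 11 overlapped ac647, 6 overlapped ac4729 and 6 overlapped p300.

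**Figure D1:**
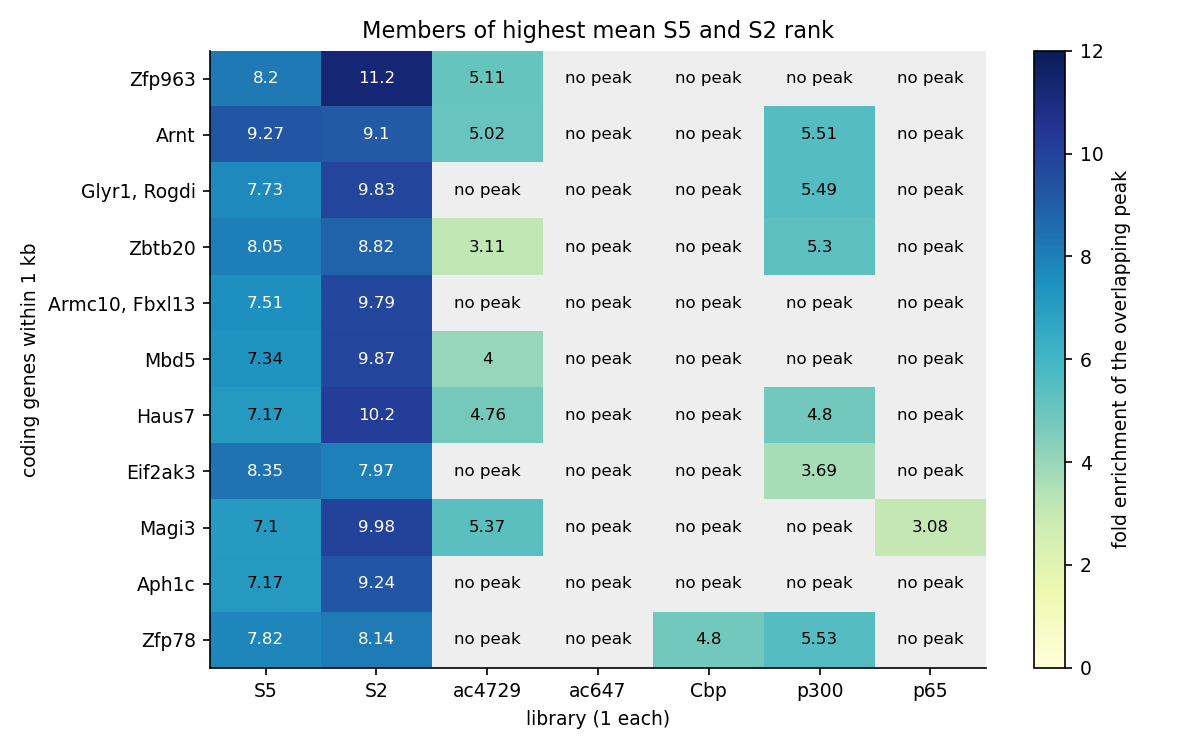
Fold enrichment of the overlapping peak (color, with the value in each cell; grey, no peak) at 11 of the 12 members of highest mean S5 and S2 rank (rows, named by the coding genes within 1 kb) in 7 libraries (columns). S5 and S2 chose these rows; ac647 is empty in all 11, and p65 has 1 peak, at Magi3 (3.08).

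Over all 1345 members, S5 fold ran from 2.64 to 11.5 with a median of 4.22 (quartiles 3.70 and 4.97), and S2 fold from 2.24 to 12.4 with a median of 5.32 (quartiles 4.37 and 6.56). In the counterparts the medians were 5.06 for S5 and 6.41 for S2. These values chose the members and are a description. Not all members were strong in S5: 850 (63.2%) had an S5 −log10 q of 2 or more, against 58.0% of all S5 peaks above 2. In S2, 1311 (97.5%) had a −log10 q of 2 or more, against 82.5% of all S2 peaks above 2. A −log10 q of 5 was reached in both by 220 members. S5 folds fell on repeated values, with 95 members at the same fold of 3.37. Members were narrower than counterparts, with a median S5 width of 310 bp (180 to 1294) against 379 bp, and a median S2 width of 527 bp against 568 bp. They were wider than the lists at large, whose median widths were 290 bp over all S5 peaks and 350 bp over all S2 peaks. The rule required overlap of S5 and S2, and S2 values are those of the overlapping peak of highest fold. Comparisons of members with the whole lists are thus not independent of the rule.

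The highest S5 fold, 11.5, was at Prdx1, a peroxiredoxin, where S2 was 4.77, and the highest S2 fold, 12.4, was at Smim8, where S5 was 3.37. Both genes were chosen after their values were seen. Spearman's rho of S5 and S2 fold over the 1345 members was 0.334. That correlation is a description across peaks of 2 libraries of the same line. The lowest-ranked members were at Poldip3 (S5 2.96, S2 2.40), Lgals3, encoding galectin-3 (3.07, 2.45), and Ankef1 (2.95, 2.90). HA peaks lay within 1 kb of the members at Poldip3 and Lgals3. The widest were at Cd164, a sialomucin (1294 bp), between Aptx and Dnaja1 (1213 bp), at Tmem245 (1169 bp), Sfxn3 (1117 bp), and over H2ac6 and H2bc4 (1073 bp).

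**Figure D2:**
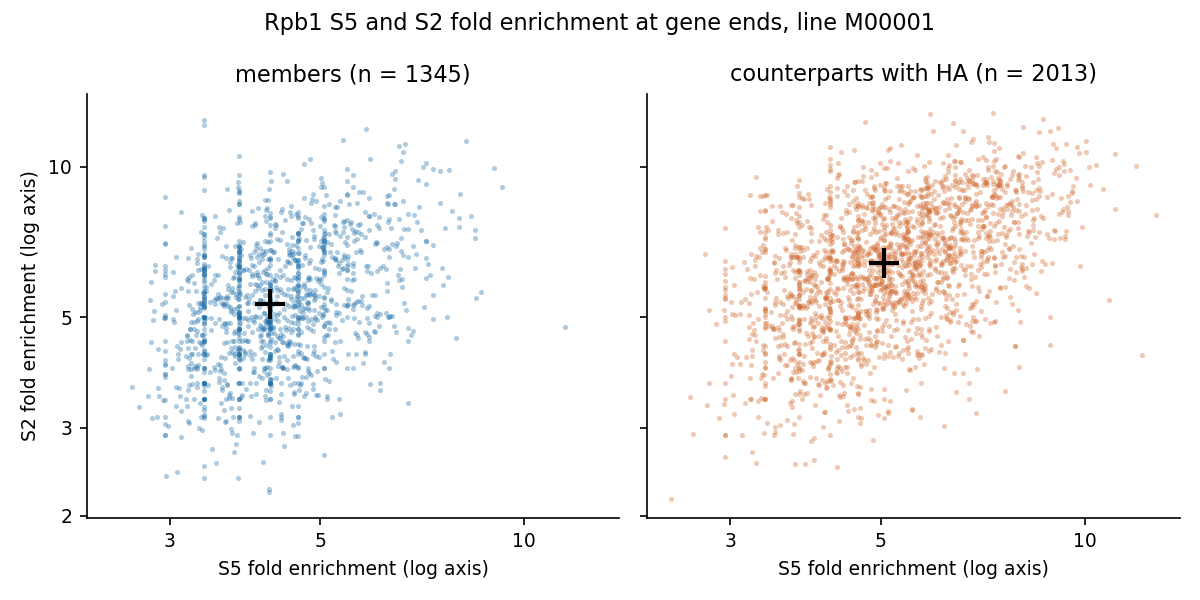
S5 (x, log axis) against S2 (y, log axis) fold enrichment of each peak, members at the left (n = 1345) and counterparts with HA at the right (n = 2013); the cross marks the medians. The member cross sits at 4.22 and 5.32 and the counterpart cross at 5.06 and 6.41, and the member points stand in columns at repeated S5 folds.

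The distance limit cut through peaks of like values. Just inside 1 kb were members at Spast (989 bp from the end, S5 5.06, S2 6.19), Wars2 (989 bp, 4.64, 5.79, HA within 1 kb) and Gm1979 (972 bp, 3.57, 3.36). Just outside were peaks on chromosomes 16 (HA within 1 kb), 6 and 17 at 1004, 1004 and 1009 bp, with S5 folds of 3.43, 3.18 and 5.14 and S2 folds of 4.47, 4.96 and 4.67. Most members were far from this limit: 764 (56.8%) covered a gene end and the upper quartile of the distance was 71 bp.

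H3K27ac and the coactivators were rarer at members than at counterparts. The rule did not use these lists, but it used HA of M00002, the line of both H3K27ac lists. H3K27ac by ac4729 overlapped 56.1% of members (754 of 1345, exact Clopper-Pearson 95% interval 53.4 to 58.7) and 70.8% of counterparts (68.7 to 72.8). By ac647 the shares were 16.7% (14.8 to 18.8) of members and 32.2% (30.2 to 34.3) of counterparts. Cbp overlapped 4.76% (3.68 to 6.04) of members and 12.3% (10.9 to 13.8) of counterparts, and p300 10.7% (9.10 to 12.5) of members and 33.3% (31.2 to 35.4) of counterparts. Over all S5 peaks the shares were 43.6% for ac4729, 28.7% for ac647, 18.3% for Cbp and 26.8% for p300, so ac4729 alone of these 4 was commoner in members than in S5 peaks at large. All 4 shares were lower in members than in counterparts by Fisher's exact test, two-sided, with Benjamini-Hochberg adjustment over 15 odds ratios.

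The odds ratios of members over counterparts were 0.526 (0.455 to 0.610) for ac4729, 0.423 (0.355 to 0.504) for ac647, 0.357 (0.265 to 0.477) for Cbp and 0.240 (0.196 to 0.293) for p300. The adjusted exact p-values were 5.61e-18, 9.26e-24, 4.53e-14 and 1.36e-53. Peaks are not replicates, and these p-values compare members with counterparts over peaks, with 1 library per mark, not conditions. Counterparts also had the higher S5 fold and width, and within 5 classes of S5 fold or of S5 width these 4 odds ratios stayed below 1 and past the threshold of 0.05.

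p65 separated members and counterparts most. A p65 peak of M00002 overlapped 61 members (4.54%, 3.49 to 5.79) and 1208 counterparts (60.0%, 57.8 to 62.2), an odds ratio of 0.0317 (0.0237 to 0.0417, adjusted exact p = 3.37e-271). Over all S5 peaks the share was 23.8%. A p65 antibody may also bind the RELA part of the fusion, so leaving out HA bears on p65, and this comparison is not fully independent of the rule. The members with the highest p65 fold were at Leng9 (8.25), between Cfap70 and the mitochondrial ribosomal gene Mrps16 (7.19), at Gcdh, encoding glutaryl-CoA dehydrogenase (6.13), at the kinase gene Hipk1 (6.02) and at the chromatin remodeller gene Baz1b (5.91). HA peaks lay within 1 kb of the members at Leng9 and Hipk1. An HA peak of M00002 lay within 1 kb of 14.8% of the 61 members with p65 (6.98 to 26.2) and of 12.4% of the other 1284 (10.6 to 14.3).

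Members also differed from S5 and S2 peaks away from gene ends, which lack HA as well. ac4729 was commoner in members (56.1% against 41.8%, odds ratio 1.77, 1.51 to 2.08, adjusted exact p = 1.19e-12). ac647 was rarer (16.7% against 28.7%, odds ratio 0.499, adjusted exact p = 8.19e-13), as were Cbp (4.76% against 16.4%, odds ratio 0.255, adjusted exact p = 5.41e-22) and p300 (10.7% against 26.6%, odds ratio 0.330, adjusted exact p = 8.88e-25). The 2 H3K27ac antibodies thus went opposite ways in this comparison, but among S5 and S2 peaks with −log10 q of at least 5 the ac4729 difference missed the threshold (odds ratio 1.36, adjusted exact p = 0.243). An IgG peak of M00002 lay within 1 kb of 0.818% of members and 3.84% of the peaks away from gene ends; its part in the result was not tested. For p65 the shares were 4.54% and 4.51%, with an odds ratio of 1.01 (0.680 to 1.49, adjusted exact p = 1.0), an interval that leaves room for a difference of either sign.

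Against gene-end S5 peaks without S2, members had more ac4729 (56.1% against 30.2%, odds ratio 2.95, 2.33 to 3.75), more p300 (10.7% against 5.30%, odds ratio 2.14, 1.35 to 3.54) and more p65 (4.54% against 1.61%, odds ratio 2.90, 1.31 to 7.57). The adjusted exact p-values were 1.06e-20, 0.000826 and 0.00483. The differences in ac647 (odds ratio 1.12, 0.825 to 1.53) and Cbp (1.92, 0.993 to 4.08) did not pass, with adjusted exact p-values of 0.538 and 0.0616. The p300 and p65 differences were lost within classes of S5 fold (Cochran-Mantel-Haenszel odds ratios 1.41 and 1.83, adjusted p-values of 0.238 and 0.247 over peaks). Among S5 and S2 peaks with −log10 q of at least 5, neither p65 (2.76, adjusted exact p = 0.294) nor p300 passed, and p300 turned to 0.711 (adjusted exact p = 0.342). There ac647 turned to 0.456 and passed (adjusted exact p = 0.0418). Peaks without S2 at this setting lack an S2 peak of that strength but may overlap a weaker one. The comparison group thus differs from that of the main test.

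**Figure D3:**
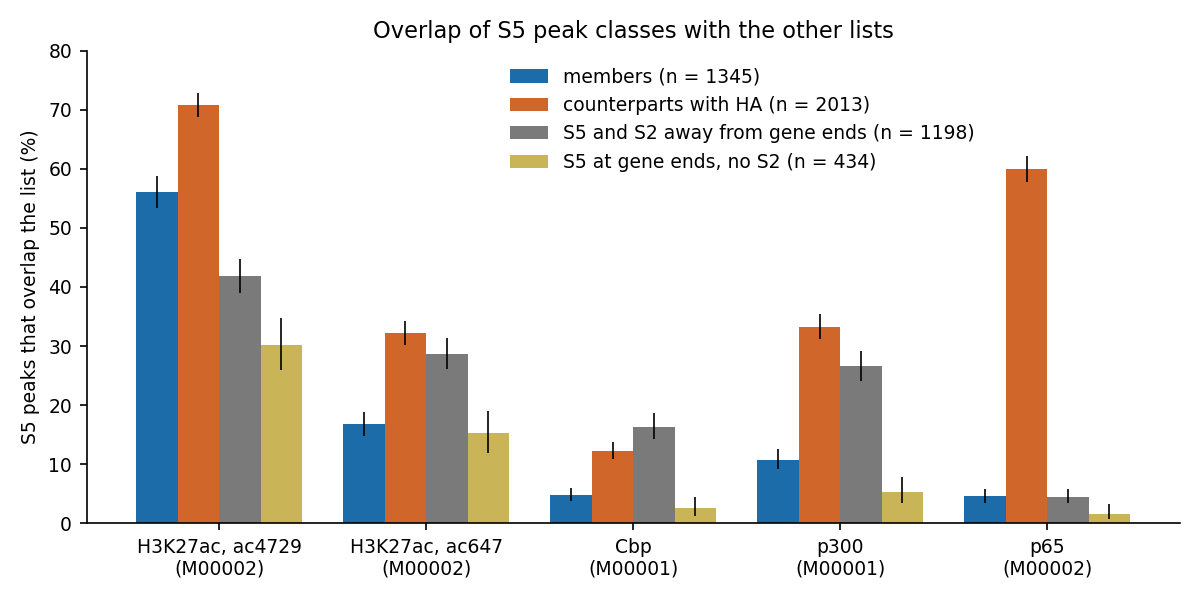
Share of S5 peaks (y, %) that overlap each of 5 lists (x), for members, counterparts with HA, S5 and S2 peaks away from gene ends and gene-end S5 peaks without S2, in that order; bars are 1 library and error bars exact 95% intervals over peaks. Members stand at 56.1% for ac4729 and under 17% for every other list, and the counterparts reach 60.0% for p65.

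Most members fell in 3 of the combinations of the 5 marks. None of the 5 marks overlapped 495 members (36.8%), ac4729 alone 456 (33.9%) and both H3K27ac antibodies alone 145 (10.8%), and 1 member had all 5. In the counterparts 9.29% had none of the 5, but p65 takes part in that count. Of the 754 members with ac4729, 27.2% also had ac647, against 3.38% of the 591 without it. p300 overlapped 12.2% of members with ac4729 and 8.80% of those without it, and Cbp 6.50% and 2.54%. With ac647 the shares were 18.7% and 9.11% for p300. Cbp and p300 met at 25 members, 39.1% of the 64 with Cbp and 17.4% of the 144 with p300.

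Marks were commoner at members of higher S5 fold. From the lowest to the highest of 5 classes, the share with ac4729 was 46.5%, 54.6%, 55.4%, 60.3% and 63.6%. The share with p300 was 8.92%, 6.32%, 8.49%, 8.61% and 21.2%, so it stood apart in the top class. Cbp was at 2.60% in the lowest class and 8.55% in the highest. The median width of the members rose with the class too, 247 bp in the lowest and 390 bp in the highest; its part in these shares was not tested.

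The members strongest in both H3K27ac antibodies were at 8 genes. Usp48, a deubiquitinase gene, had ac4729 at 12.9 and ac647 at 8.60, and Parn, a poly(A) ribonuclease gene, 7.31 and 9.29. The divergent promoter of Atp6v1a, a subunit of the vacuolar proton pump, and Naa50, an acetyltransferase subunit, had 8.32 and 8.10, with p300 at 4.29. Ghitm, an inner mitochondrial membrane gene, had 7.53 and 8.04, the promoter of Nkapd1 and Pih1d2 8.39 and 7.14, and Sars, a seryl-tRNA synthetase gene, 7.11 and 7.57. HA peaks lay within 1 kb of the members at Ghitm and Nkapd1. The members strongest in Cbp and p300 were a different set: Zfp78 (Cbp 4.80, p300 5.53), Gp9, a platelet glycoprotein gene (5.04, 5.17), Nampt, an enzyme of NAD synthesis (4.46, 4.84), Spata4 (4.46, 4.60), Zfp703 (4.12, 4.92) and Pip4p1 (5.15, 4.06). Of these 6, 3 had ac4729, 2 had ac647 and 2 had p65. The member at Spata4 lay 102 bp past the far end of that gene, not at its start.

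Polymerase summits of members lay less far upstream of the gene start than those of counterparts. The table of gene ends holds no strand, so strand came from the RefSeq promoter table and was known for a gene at 1120 members (83.3%) and 1767 counterparts (87.8%). A gene start lay within 1 kb of 97.4% of those members and 97.6% of those counterparts, and only the far end of a gene at 29 members. Starts on both strands lay within 1 kb of 14.5% of members and 14.7% of counterparts. By these measures the groups did not differ past the threshold (odds ratios 0.916, 0.554 to 1.53, and 0.980, 0.787 to 1.22, adjusted exact p = 0.871 for both).

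The S5 summit lay downstream of the nearest RefSeq start in 44.7% of 1060 members (41.7 to 47.8) and 27.2% of 1691 counterparts (25.1 to 29.4), an odds ratio of 2.16 (1.84 to 2.55, adjusted exact p = 1.58e-20). The S2 summit did so in 38.3% of members and 21.1% of 1688 counterparts, an odds ratio of 2.32 (1.95 to 2.76, adjusted exact p = 1.63e-21). The median S5 summit lay at −22.5 bp, upstream of the start, in members (quartiles at −116.75 and 104.25 bp) and at −82.0 bp in counterparts (quartiles at −164.5 and 10.0 bp). Summits within 250 bp of the start made up 82.5% in members and 83.0% in counterparts, a difference that did not pass (odds ratio 0.967, 0.786 to 1.19, adjusted exact p = 0.871). These 5 position tests were chosen after the data were seen.

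The HA summit that makes a counterpart lay downstream of the start in 24.4% of 800 counterparts with HA of M00001 and 20.5% of 1632 with HA of M00002, and the part of that choice in the position difference was not tested. Among members, the S5 summit was downstream in 48.9% of those with ac4729 and 39.4% of those without, and in 37.7% of those with p300 and 45.6% of those without. Among counterparts the same shares were 29.6% and 21.3% for ac4729, and 24.1% and 28.8% for p300. Within each of these subsets the share was thus higher in members, a comparison that was not tested. Gene-end S5 peaks without S2 lay farther downstream, with 69.7% of 264 summits downstream and a median of 143.0 bp.

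**Figure D4:**
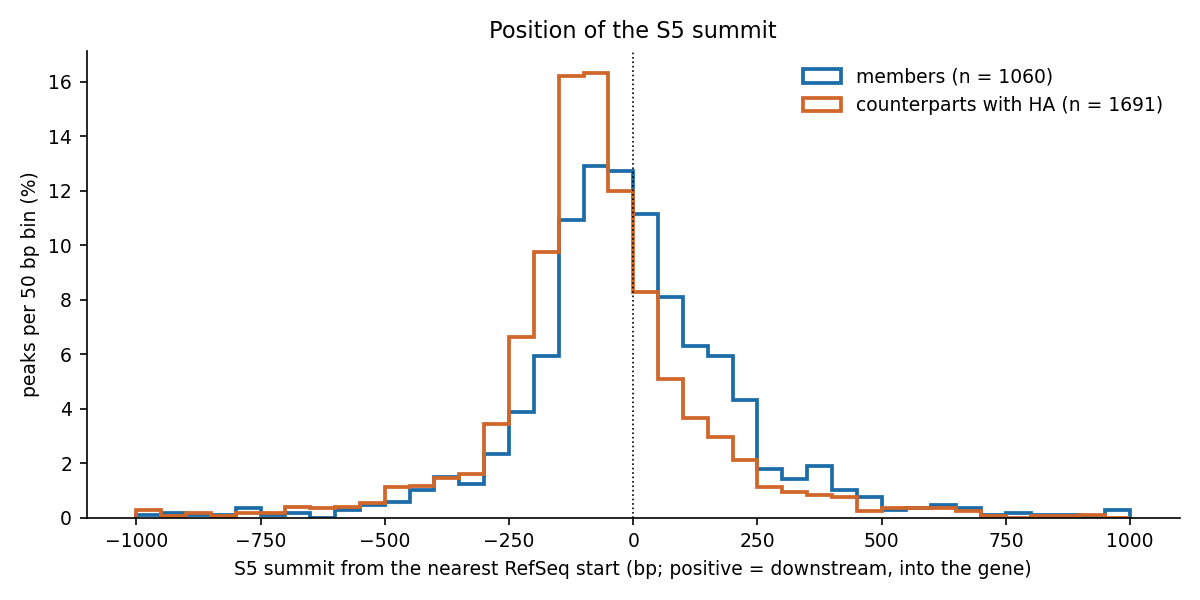
Distance of the S5 summit from the nearest RefSeq gene start (x, bp, positive into the gene) as the share of peaks per bin of 50 bp (y, %), members (n = 1060) and counterparts with HA (n = 1691). Both peak just upstream of the start; the member curve is lower upstream and higher from 0 to 250 bp downstream, with medians of −22.5 and −82 bp.

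Promoter composition was close between the groups, and some of the 11 motifs differed in frequency. A 300-base RefSeq window overlapped 932 members and 1576 counterparts, giving 931 and 1576 distinct windows. Median GC content was 62.0% in member windows, 64.0% in counterpart windows and 56.7% in all 21019 windows of coding genes, and the median CpG ratio of observed over expected was 0.833, 0.829 and 0.573. The 11 motifs were each compared between member and counterpart windows by Fisher's exact test, with adjustment over the 11.

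GC boxes, known to bind Sp factors, were in 72.5% of member windows, 81.4% of counterpart windows and 46.6% of all windows (odds ratio of members over counterparts 0.602, adjusted exact p = 1.38e-06). CCAAT boxes, known to bind NF-Y, were in 43.2% of member windows, 55.9% of counterpart windows and 38.5% of all (odds ratio 0.599, adjusted exact p = 9.74e-09). The NF-kappaB motif was in 3.54%, 5.90% and 4.85% (odds ratio 0.586, adjusted exact p = 0.0228). The other way, the ETS motif was in 11.9% of member windows, 8.19% of counterpart windows and 5.20% of all (odds ratio 1.52, adjusted exact p = 0.00699), and the E-box in 13.1%, 9.20% and 7.91% (odds ratio 1.49, adjusted exact p = 0.00699). Within 5 classes of GC content the odds ratio was 0.715 for the GC box and 0.550 for the CCAAT box.

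The cAMP response element, known to bind CREB and ATF factors, was in 5.59%, 3.68% and 2.26% (odds ratio 1.55, adjusted exact p = 0.0486), and missed the threshold within 5 classes of GC content (adjusted p = 0.058). The TATA box (TATAAA), the AP-1 motif (TGANTCA), the YY1 motif (AAGATGGCG), the NRF1 motif (GCGCATGC) and the ZNF143 motif (ACTACAATT) did not pass. They were in 6.44%, 3.44%, 4.73%, 7.41% and 1.18% of member windows and in 5.08%, 4.31%, 3.81%, 6.22% and 0.888% of counterpart windows. In all windows they were in 12.7%, 7.04%, 1.84%, 3.54% and 0.514%. A window can hold several motifs, and a GC box adds to GC content.

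Members were spread over 1598 of 21627 protein-coding genes, 7.39%, against 11.2% with a counterpart and 18.6% with any S5 and S2 peak at an end. Both a member and a counterpart lay at 52 genes. A member lay near 1 gene in 1071 cases, near 2 in 267 and near 3 in 7, so genes that share a peak are not independent, and 27 genes had 2 or more members. The gene as a whole was not always free of HA: of the 1598 genes, 1306 had no HA peak within 1 kb of either end and 1001 none within 5 kb. HA of either line lay within 1 kb of 13.5% of member peaks and within 10 kb of 36.7%. Median gene length was 20292 bp with a member, 19967.5 bp with a counterpart and 17330 bp over all coding genes. Of genes longer than 3 kb, an S2 peak lay inside the gene more than 1 kb from its ends in 31.6% with a member, 33.6% with a counterpart and 27.7% of all.

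By chromosome, the share of coding genes with a member ran from 4.35% on X, where 3.21% had a counterpart, to 9.72% on chromosome 16, where 9.43% had one. Chromosome 13, which carries the main histone cluster, had a member at 9.17% of genes and a counterpart at 6.76%. Chromosome 11 had 153 genes with a member, 9.51%.

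Members were read against 27 gene lists, by the number of genes with a member at an end and beside the background of 7.39%. A share near that is not a result about the list, and no list was tested. Counts of genes with a counterpart stand beside them, against 11.2% over all coding genes.

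Genes of the transcription machinery differed by list in the balance of members and counterparts. Of 72 genes for polymerase II and general factors, 17 (23.6%) had a member and 12 (16.7%) a counterpart. Taf8, a subunit of TFIID, had S5 6.85 and S2 6.95, with ac4729 9.98, ac647 4.62, Cbp 3.43 and p300 5.05. Ctr9, of the elongation complex PAF, had S5 7.17 and S2 6.56. Polr2b, the second largest polymerase subunit, shares a member with Noa1 (S5 5.90, S2 7.96) that overlapped none of the 5 marks. Others were Cdk7, the serine 5 kinase of TFIIH, Gtf2b, Gtf2e2, Gtf2f1, Taf7, Taf9 and the elongation factors Supt4a and Tcea1. Mediator, the bridge between activators and polymerase, was the other way round, with 4 of 33 genes (12.1%) at a member and 10 (30.3%) at a counterpart. Its members were at Med7 (S5 6.30, S2 5.00), Ccnc (4.02, 5.00), Med31 (3.79, 5.27) and Med9.

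RNA splicing had fewer members than counterparts, as had all coding genes (7.39% and 11.2%). Of 71 genes, 14 (19.7%) had a member and 33 (46.5%) a counterpart, 3 of them both. Hnrnpk, which binds poly(C) RNA and shares its promoter with Rmi1, had S5 7.60, S2 5.81, ac4729 6.09 and ac647 4.62. Luc7l2 had S5 5.95 and S2 6.13 with an HA peak within 1 kb, and Snrnp25, a protein of the minor spliceosome, 5.42 and 6.59 at a promoter shared with Il9r.

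Genes of translation held members in each class. Of 86 cytosolic ribosomal protein genes, 25 (29.1%) had a member and 26 (30.2%) a counterpart, 1 of them both. Rps26 had S5 6.59 and S2 5.97, Rps15a 6.12 and 5.08 with none of the 5 marks, and Rps9 6.85 and 4.68. tRNA synthetases had members at 9 of 33 genes (27.3%) and counterparts at 6 (18.2%): Tars had S5 7.16 and S2 7.09, and Cars 6.39 and 7.01, both with none of the 5 marks. Sars2 shares its member with Mrps12 (5.74, 6.74, ac4729 6.57, p65 4.77). Of 55 genes listed as initiation factors, 10 (18.2%) had a member and 16 (29.1%) a counterpart. Eif3a had S5 5.77 and S2 5.28, and 2 of the 10 are not initiation factors but kinases that restrain initiation, Eif2ak3 and the heme-regulated Eif2ak1 (4.69, 5.47).

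Mitochondrial genes held members at the same share in both lists. Mitochondrial ribosomal proteins had members at 11 of 77 genes (14.3%) and counterparts at 14 (18.2%), and oxidative phosphorylation at 12 of 84 (14.3%) and 9 (10.7%). Mrps36 had S5 6.32 and S2 6.84 with none of the 5 marks, and Mrps16 5.56 and 7.51. Ndufa6, a complex I subunit, had 5.33 and 6.42 and Ndufa12 5.48 and 5.66. Sdhd, the membrane anchor of complex II, had 5.06 and 6.66 at a promoter shared with Timm8b, with an HA peak within 1 kb. The proteasome had members at 9 of 39 genes (23.1%) and counterparts at 7 (17.9%). Its members included Psmd14, the deubiquitinase of the lid (4.81, 7.84, ac4729 8.39), the ATPase gene Psmc3 (5.90, 4.87) and Psmd1 (4.77, 5.01, ac4729 7.06).

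Members lay at 12 of 63 replication-dependent histone genes and counterparts at 9 (14.3%), with no gene in both. The 12 genes share 6 member peaks. The member over H3c13 and H2bc18 (chromosome 3, 96269362 to 96270100) had S5 8.64 and S2 5.62, with ac4729 4.09, ac647 3.57 and p65 3.83. That over H2ac22 and H2bc22 (chromosome 13, 21786938 to 21787839) had S5 6.32, S2 3.95 and p300 3.46, and that over H2ac6 and H2bc4 6.11, 3.69, ac4729 3.50, ac647 3.92 and p300 6.34. In these 3 members the S5 fold was above the S2 fold. That is a description, since both lists chose the members and folds of 2 libraries are not on 1 scale. Histone genes are short and near-identical, and the sources used here do not say how reads that map to several copies were treated, so which copy holds a peak is uncertain.

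Genes of the cell cycle and of repair had fewer members than counterparts, as had all coding genes (7.39% and 11.2%). DNA replication had members at 5 of 37 genes (13.5%) and counterparts at 10: Mcm4, of the replicative helicase, shares its promoter with Prkdc (S5 5.51, S2 8.41), Cdc45 with Ufd1 (5.04, 5.08) and Fen1 with Tmem258 (3.85, 4.98). Mitosis had members at 5 of 26 (19.2%) and counterparts at 11 (42.3%), with members at Cdc25c (6.09, 7.94), Bub3 of the spindle checkpoint (4.88, 7.46) and Top2a (4.69, 7.51). DNA repair had members at 3 of 26 (11.5%), among them Xpa (3.79, 6.31, HA within 1 kb) and Nbn (3.37, 5.00), and counterparts at 10 (38.5%). Chromatin regulators had members at 4 of 28 (14.3%) and counterparts at 9 (32.1%): Setd2 (5.34, 7.27), Smarcb1 (4.50, 6.75), Tet2 (3.25, 4.74, HA within 1 kb) and Ezh2.

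Stress and signal-induced genes had the largest shares of counterparts. Chaperones had members at 4 of 28 genes (14.3%) and counterparts at 16 (57.1%): Dnaja1 (S5 6.54, S2 5.93), Hsph1 (5.60, 5.96, Cbp 3.77, p300 4.80), Cct4 (3.81, 4.87) and Hsp90ab1. Immediate early genes had members at 5 of 23 (21.7%) and counterparts at 12 (52.2%): Klf6 (5.97, 5.52, Cbp 3.59), Ier3 (6.74, 4.49), Fosb (3.39, 4.20, ac4729 6.39), Ier2 and Dusp6. The member at Ier3 lay 92 bp past the far end of that gene, not at its start, and is shared with Flot1.

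Lists of tumour and NF-kappaB genes held 1 member each, near the background. Of 25 NF-kappaB targets, 1 (4.00%) had a member, Rel, which encodes an NF-kappaB subunit (S5 5.69, S2 5.38, none of the 5 marks), and 9 (36.0%) a counterpart, among them Nfkbia, Nfkbie, Relb and Icam1. Of 18 ependymoma genes, 1 (5.56%) had a member, the Notch ligand gene Jag1 (3.85, 4.15), and 3 (16.7%) a counterpart, Notch1, Rela and Relb. Of 18 radial glia genes, 1 (5.56%) had a member, Id1 (4.57, 3.50), and 3 (16.7%) a counterpart, Notch1, Tnc and Vim. None of these 3 members overlapped any of the 5 marks. The ependymoma genes were picked for their known place in this tumour type, so their count is not independent of it.

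No member lay at any of 15 neuron, 12 oligodendrocyte lineage, 10 astrocyte, 10 endothelium, 12 microglia and leukocyte, 15 ependymal or 15 other-tissue genes. Counterparts lay at Aldoc, Tmem119, Ccno, Rfx2, Actn3 and Apoa2 of these lists. These lists are short beside a background of 7.39%, so their counts of 0 are not read as a result. Of the 15 genes of ependymal cells, the cells this tumour type is named after, 2 (13.3%) held a counterpart. Of 1106 olfactory receptor genes, 1 had a member (0.0904%) and none a counterpart: Olfr279 (chromosome 15, S5 5.32, S2 3.42).

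**Figure D5:**
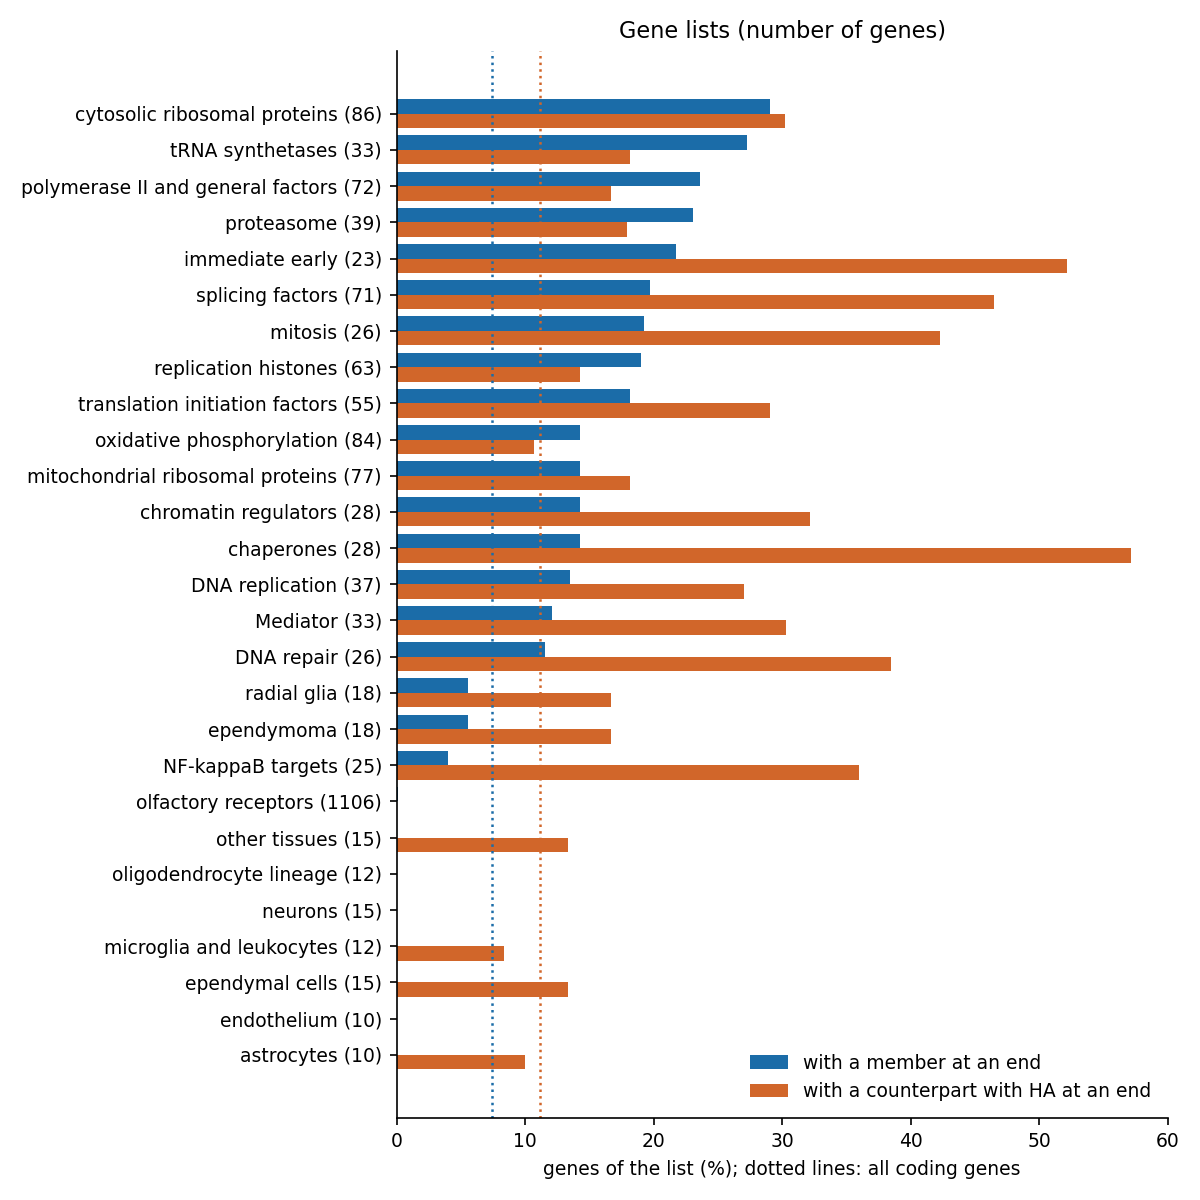
Share of the genes of each list (x, %; number of genes in brackets) with a member (upper bar) or a counterpart with HA (lower bar) at an end; dotted lines mark all coding genes, 7.39% and 11.2%. Cytosolic ribosomal proteins lead for members at 29.1%, and chaperones for counterparts at 57.1%; the lists of neurons, oligodendrocyte lineage and endothelium are at 0 for both.

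Zinc finger genes came up through the ranking of members. With 2 of the 12 strongest members at Zfp genes, all 397 coding genes named Zfp and a number were counted after the values were seen: 49 (12.3%) had a member and 38 (9.57%) a counterpart, and no gene had both. Among them were Zfp963, Zfp78, Zfp703, Zfp809, which in mouse represses retroviruses, and Zfp263. Many Zfp genes have close paralogs, and single genes are uncertain for the same reason.

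Ends of non-coding RNA genes were counted near members and counterparts. Ends of lncRNA genes lay within 500 bp of 10.6% of members (8.97 to 12.3) and 12.4% of counterparts (11.0 to 13.9). Ends of miRNA genes, among them Mir320, lay within 500 bp of 9 members (0.669%) and of 0.695% of counterparts. Those of snoRNA genes lay within 500 bp of 6 members (0.446%) and of 0.298% of counterparts. Among these, Snord68 is known from an intron of Rpl13, a gene with a member.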

How the data were processed

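CUT&RUN was measured in 11 libraries, 1 per target and line, and each library has its own deposited list, called without pooling. Per the submitters' processing notes, MACS2, Bowtie2 2.3.5.1, deepTools, Trim Galore and FastQC were used with mm10; settings are not given. The deposited lists give each peak the authors' fold enrichment (a ratio over the caller's background). They also give the authors' −log10 p and −log10 q values, as deposited. The control used in calling is not stated in the labels. No list holds read counts, so intervals cover counting error over peaks only. Titles of Cbp, p300, S2 and S5 carry a code that HA and IgG of M00001 lack, and the HA and p65 lists of M00002 a mark of 120 bp, both unexplained.

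From the lists, overlaps of 1 bp or more were computed on chromosomes 1 to 19 and X, and gene ends came from GRCm38.p6 (21627 coding genes). Promoter windows (RefSeq, GRCm38.p6) matched 17250 of these genes (79.8%). Fisher's exact test was two-sided (scipy 1.17.1), stratified odds ratios used statsmodels 0.14.6, and the threshold was an adjusted p of 0.05. Overlap, distance and odds-ratio code was tested on simulated data. Members, gene lists and tests were chosen with earlier results of these data known. Named were the genes at the 12 highest and 3 lowest members by mean S5 and S2 rank, the 5 widest, the 6 strongest in both H3K27ac lists, the 6 in Cbp and p300, the 5 in p65, 3 on each side of 1 kb, and up to 3 per list. Other genes were named after their values were seen. A few results that this rule covers are not reported here.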

Additional observations from a re-analysis of the deposited data

How the results depend on the processing

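The 5 mark odds ratios of members over counterparts kept their side of 1 and of the threshold under 13 other settings (a gene-end window of 500 bp or 2 kb, stronger peaks, 50% overlap, windows around the summit, other uses of HA or IgG, and classes of S5 fold or width). Of 195 odds ratios under alternatives 176 kept direction and call, and of 75 shares and counts 50 stayed close. With −log10 q of at least 5 in S5 and S2, there were 220 members at 269 genes, with 62.7% (ac4729), 23.6% (ac647), 10.0% (Cbp), 21.4% (p300) and 10.9% (p65). Odds ratios then missed the threshold for ac4729 over peaks away from gene ends (1.36), and over gene-end peaks without S2 for p300 (0.711) and p65 (2.76), while that for ac647 turned and passed (0.456). At this setting gene-end peaks without S2 may overlap a weaker S2 peak, so that group is not the same as in the main test. With HA of M00001 alone, 2396 members at 2835 genes had 59.6%, 20.5%, 6.39%, 17.1% and 21.2% in the same order, with odds ratios of 1.56 for p65 over peaks away from gene ends and 2.96 for Cbp over peaks without S2. With at least 50% overlap, 49.6% had ac4729 and 14.3% ac647; with 250 bp each side of the summit, 59.8% and 18.9%. Without HA within 1 kb, 14.7% had ac647; with HA peaks of −log10 q of at least 2 alone, 12.9% had p300 and 6.17% p65. With mark peaks of −log10 q of at least 2 alone, 14.1% had ac647, 1.12% Cbp, 5.58% p300 and 2.45% p65. The odds ratio for Cbp over peaks without S2 passed under 50% overlap (1.92), around the summit (2.10), without HA within 1 kb (2.39) and with the stronger HA peaks (1.95), and that for ac647 around the summit (1.41). For p65 over peaks without S2 it also missed at 500 bp (2.29) and in classes of S5 fold (1.83), and for p300 in those classes (1.41). For p65 over peaks away from gene ends it was 0.949 with HA of M00002 alone, 0.963 in classes of S5 fold and 0.990 of width, and for ac647 over peaks without S2 0.840 and 0.853. The cause of these shifts was not tested.

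Of 25 values added after the data were seen, 24 kept direction and call. The odds ratio for an S5 summit downstream of the start ran from 1.68 (5 classes of S5 fold) to 2.25 (5 classes of width), and that for an S2 summit from 1.87 (HA of M00001 alone) to 2.43 (S5 −log10 q of at least 5). The cAMP response element was lost within classes of GC content (1.55). No paired analysis was possible because each target has 1 library per line and no result comes from a test over samples. Unknown depth limits every statement on the lack of a peak, and leaving out a library was not possible with 1 per target.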
